A study of Mus musculus with 13 samples.

Results

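The first set of H3K9me3 domains in the authors' table of mouse genomic regions was described by its merged signal for 2 antibodies, against acetylated lysine 14 of histone H3 (H3K14ac) and against KAT7 (HBO1). Rows of this class were kept when they lay on an autosome, shared no base with another row of the class and shared none with the second set of H3K9me3 domains. Of 20377 rows of the class, 7519 met the rule, out of 240814 regions in the table. Of the others, 1300 were on chromosomes X and Y, 4571 autosomal rows shared a base within the class and 10253 shared a base with the second set, some for both reasons. Every kept row was a fixed window of 12001 bases, so levels could not be compared by length, and a window shows where a domain was placed but not how far it extends. H3K9me3 itself is not among the measurements of the table, and how the windows were chosen is not given in the sources used here, so the class name could not be checked against the mark.

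The cells were neural stem and progenitor cells of mouse embryos at E14.5, taken from 2 forebrain regions (cortex and ganglionic eminences) and kept as neurospheres, free-floating balls of cells, until day 3 of passage 5. The labels name 13 chromatin immunoprecipitation sequencing (ChIP-seq) libraries of 2 genotypes, Kat7 lox/lox NesCreT/+ (Kat7-deleted) and Kat7 +/+ NesCreT/+ (Kat7-intact), so the controls also carried the Cre transgene, which nestin regulatory sequence drives. For H3K14ac there were 4 Kat7-intact and 3 Kat7-deleted libraries, for KAT7 3 and 1, and 2 more used IgG. The values used here were 1 merged column per antibody, scaled to 141734087 reads (H3K14ac) and 134111848 reads (KAT7). Which libraries and genotypes entered each column is not given in the sources used here, so no genotype, replicate or IgG comparison was made, no p-value is given and background was not subtracted. The progenitor genes Nes, Sox2 and Olig2 carried the table's mark for the highest 5% of expression, Pax6 did not, and none of these genes held a window.

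Trimethylation of lysine 9 of histone H3 marks silent heterochromatin. SETDB1 places it at many repeats, imprinted loci and zinc-finger gene clusters, to which KRAB zinc-finger proteins recruit it through TRIM28, and HP1 proteins such as CBX5 bind the mark. KAT7 is a MYST-family acetyltransferase that acetylates lysine 14 of the same histone tail and works in complexes with BRPF or JADE scaffold proteins, and H3K14ac is usually most abundant at active promoters.

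CpG dinucleotides, the substrate of DNA methylation and the defining feature of CpG islands, were counted in RefSeq promoters (GRCm38.p6, 250 bases before to 50 bases after a gene start), because the promoters in windows with more KAT7 than H3K14ac were richer in them than those in other windows. Most windows with a ratio interval above 1, 769 of 1011, held no promoter, but neither did 89.4% of all windows. The interval lay above 1 in 11.4% of windows without a promoter. Where the most CpG-rich promoter had 20 or more CpG, it did so in 48.6%. The promoters below are printed 5′ to 3′ on the gene's strand with each CpG in capitals. Ube2z, a ubiquitin-conjugating enzyme gene (chr11:96065315-96065614, minus strand), and Rbak, a KRAB zinc-finger gene (chr5:143180726-143181025, minus strand), lie in the windows with the second and the third highest lower bound of the KAT7 to H3K14ac ratio. Cbx5 (chr15:103239803-103240102, minus strand) encodes an HP1 protein, and Zfp93 (chr7:24270168-24270467, plus strand) is a zinc-finger gene. Igf2r, the imprinted gene of the IGF2 receptor (chr17:12769657-12769956, minus strand), and Kcnq1ot1, the imprinted antisense transcript of the Kcnq1 locus (chr7:143296498-143296797, minus strand), stand for imprinted loci. Ugt1a1, a UDP-glucuronosyltransferase gene (chr1:88211709-88212008, plus strand), lies in a window that was high in both columns alike.
Ube2z: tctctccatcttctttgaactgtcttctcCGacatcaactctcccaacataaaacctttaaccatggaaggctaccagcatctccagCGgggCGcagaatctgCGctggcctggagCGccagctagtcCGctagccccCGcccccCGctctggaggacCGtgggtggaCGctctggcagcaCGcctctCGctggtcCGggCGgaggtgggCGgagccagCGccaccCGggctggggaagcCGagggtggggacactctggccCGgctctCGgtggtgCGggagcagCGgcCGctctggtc
Rbak: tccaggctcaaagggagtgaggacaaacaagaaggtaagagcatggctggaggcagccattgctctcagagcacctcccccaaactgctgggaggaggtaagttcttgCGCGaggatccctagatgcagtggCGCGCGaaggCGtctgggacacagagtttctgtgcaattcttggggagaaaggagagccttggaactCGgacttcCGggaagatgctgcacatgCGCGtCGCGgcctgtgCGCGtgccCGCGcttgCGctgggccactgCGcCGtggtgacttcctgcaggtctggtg
Cbx5: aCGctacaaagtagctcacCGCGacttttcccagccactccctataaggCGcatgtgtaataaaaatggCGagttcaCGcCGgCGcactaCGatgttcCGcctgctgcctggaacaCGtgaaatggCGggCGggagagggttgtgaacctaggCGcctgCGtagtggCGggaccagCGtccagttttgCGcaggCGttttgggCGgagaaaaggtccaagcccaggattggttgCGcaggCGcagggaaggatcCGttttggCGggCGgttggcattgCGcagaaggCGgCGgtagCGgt
Zfp93: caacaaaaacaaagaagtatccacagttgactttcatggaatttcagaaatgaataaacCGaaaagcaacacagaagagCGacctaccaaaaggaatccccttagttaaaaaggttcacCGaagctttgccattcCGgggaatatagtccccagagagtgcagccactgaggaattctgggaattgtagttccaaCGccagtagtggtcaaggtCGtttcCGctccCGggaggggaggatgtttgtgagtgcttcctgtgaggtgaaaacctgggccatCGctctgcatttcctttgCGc
Igf2r: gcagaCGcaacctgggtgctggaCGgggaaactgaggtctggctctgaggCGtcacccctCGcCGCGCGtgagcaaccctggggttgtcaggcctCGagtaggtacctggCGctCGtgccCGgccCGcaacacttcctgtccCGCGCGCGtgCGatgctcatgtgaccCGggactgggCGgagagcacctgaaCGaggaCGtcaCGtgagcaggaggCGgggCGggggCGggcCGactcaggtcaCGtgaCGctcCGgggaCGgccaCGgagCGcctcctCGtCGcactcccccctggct
Kcnq1ot1: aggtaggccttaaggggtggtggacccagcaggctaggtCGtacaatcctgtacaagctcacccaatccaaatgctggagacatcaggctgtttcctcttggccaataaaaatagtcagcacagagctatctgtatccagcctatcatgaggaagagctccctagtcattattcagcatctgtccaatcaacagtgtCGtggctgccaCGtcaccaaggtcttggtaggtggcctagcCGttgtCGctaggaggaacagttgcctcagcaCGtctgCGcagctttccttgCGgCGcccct
Ugt1a1: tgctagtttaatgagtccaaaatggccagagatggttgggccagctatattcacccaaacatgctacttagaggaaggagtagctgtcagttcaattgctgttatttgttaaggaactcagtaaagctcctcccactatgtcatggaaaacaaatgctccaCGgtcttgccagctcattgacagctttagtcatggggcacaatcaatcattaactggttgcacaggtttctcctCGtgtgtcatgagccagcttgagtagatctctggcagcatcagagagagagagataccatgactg
CpG numbered 23 in the Ube2z promoter, 19 in that of Rbak, 29 in that of Cbx5, 10 in that of Zfp93, 34 in that of Igf2r, 9 in that of Kcnq1ot1 and 2 in that of Ugt1a1. Over all 31396 autosomal promoters the median was 7, and 44.0% held at least 10 CpG.

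In the windows the levels of both columns were close to each other. With no IgG or input value used, they do not show whether the windows were enriched or depleted. The summed H3K14ac level was 0.396 RPKM (reads scaled to the length of the window and to the read total of the column), with a 95% counting interval of 0.3957 to 0.3964, and the median window had 0.393, with 90% of windows between 0.333 and 0.448. The summed KAT7 level was 0.401 RPKM (0.4007 to 0.4014), and the median window had 0.397, with 90% between 0.346 and 0.449. A median window held 669 H3K14ac reads and 639 KAT7 reads. The counting error of such a window is 3.87% for H3K14ac and 3.96% for KAT7, while the robust spread of counts between windows was 8.20% and 7.19%, so windows differed by 2.12 and 1.82 times the counting error. Intervals of summed reads are therefore far narrower than the spread between windows, and they cover counting error only, since reads are not independent molecules.

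Across windows the levels of both antibodies were related, with a Spearman correlation of 0.415 and a Pearson correlation of 0.857 over 7519 windows. The high Pearson value came from the tails. Within the inner 98% of each column, 7323 windows, the correlation was 0.376 by rank and 0.408 by Pearson. These values describe windows of the same merged columns and share the sequence and mappability of each window.

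**Figure D1:**
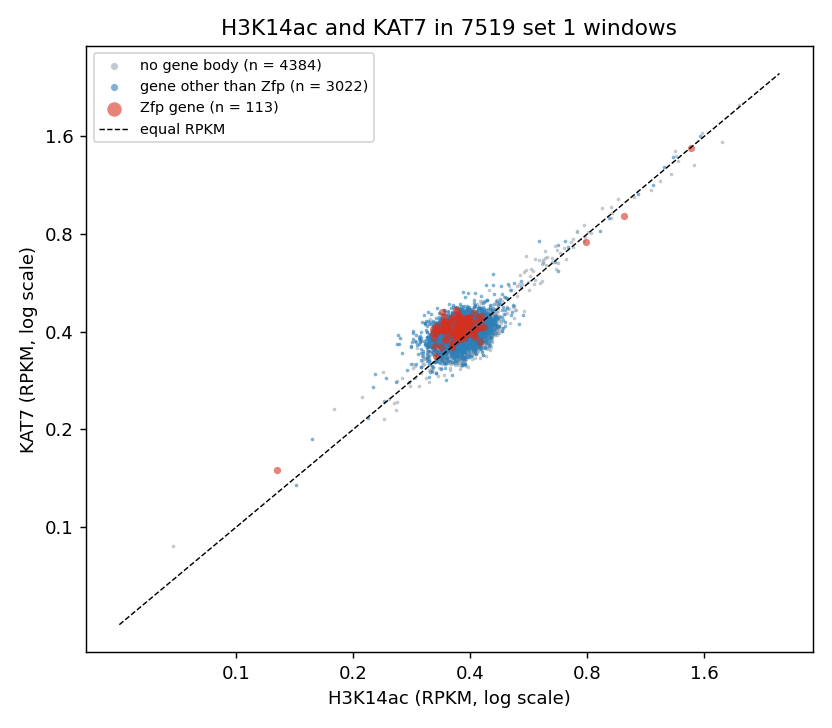
H3K14ac (x axis) and KAT7 (y axis) in RPKM on log scales, 1 point per window, coloured by whether the window touches no gene body, a gene other than a Zfp gene, or a Zfp gene, with a dashed line at equal RPKM. Most points form 1 cloud near 0.4 RPKM, and the windows far above or below it stay near the line.

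The KAT7 to H3K14ac ratio compares scaled reads, not occupancy with acetylation, because the antibodies share no scale. Over all windows it was 1.01 (1.011 to 1.014), and 90% of windows lay between 0.888 and 1.19. The 95% interval of a window's own ratio lay above 1 in 1011 windows (13.4%) and below 1 in 471 (6.26%). Over all 184830 autosomal regions the shares were 11.8% and 5.72%, and over the 28682 of 10001 to 20000 bases, which include the first set, they were 14.2% and 6.76%. Without the first set, the 14180 regions of this length had 17.2% and 6.71%. Counting error around a ratio of 1 would leave 2.5% on each side. The share above 1 in the windows was thus close to the background of all regions and under that of regions of like length.

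Windows that touch a gene body had less H3K14ac and more KAT7 than windows outside genes. Outside genes, 4384 windows had an H3K14ac level of 0.402 (0.402 to 0.403) and a KAT7 level of 0.398 (0.398 to 0.399). In the 3135 windows with a gene body (41.7%), H3K14ac was 0.387 (0.387 to 0.388) and KAT7 was 0.405 (0.404 to 0.405). The factor of genic over other windows was 0.962 (0.960 to 0.964) in H3K14ac and 1.02 (1.014 to 1.018) in KAT7. The groups overlapped widely, since 90% of genic windows lay between 0.324 and 0.443 in H3K14ac and 90% of the others between 0.346 and 0.450. Of genic windows, 62.6% lay below the H3K14ac median of the others and 60.1% above their KAT7 median. The ratio was 0.990 (0.988 to 0.992) outside genes and 1.05 (1.044 to 1.048) in genes, and its interval lay above 1 in 4.79% and 25.6% of windows. Among the table's 3036 gene bodies of 10001 to 20000 bases that share was 38.7%, and among its 884 pseudogene rows of that length 33.9%. A ratio above 1 was thus not particular to genic windows of the first set.

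The difference from windows outside genes was larger in windows that cross the end of a gene. The 1952 windows wholly inside 1 gene had 0.392 (0.391 to 0.393) for H3K14ac, 0.403 (0.402 to 0.404) for KAT7 and a ratio of 1.03. The 1090 windows partly in gene bodies had 0.377 (0.376 to 0.378), 0.406 (0.405 to 0.407) and 1.08. The 364 windows that touch 2 or more genes had 0.372 (0.371 to 0.374), 0.415 (0.413 to 0.416) and 1.11, and 49.5% of them had an interval above 1. Most of these 364 are also among the 1090, so the last 2 groups are not separate. Among these groups, H3K14ac was thus lowest and KAT7 highest in windows that touch several genes, which may lie side by side or overlap.

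Transcription start sites (TSS) ordered the windows in the same way. With no TSS, 6868 windows had 0.397 in H3K14ac and 0.400 in KAT7. A single TSS, in 518 windows, went with 0.384 (0.382 to 0.385) and 0.409 (0.408 to 0.411). Where 2 or more TSS lay in a window, in 133 windows, H3K14ac was 0.374 (0.372 to 0.377), KAT7 was 0.427 (0.424 to 0.429) and the ratio was 1.14 (1.13 to 1.15). Of these 133 windows, 75.9% were under the H3K14ac median and 74.4% over the KAT7 median of windows without a TSS, and 60.2% had a ratio interval above 1.

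Distance to a TSS mattered inside genes, but the order outside genes was not the same. Windows wholly inside 1 gene had a ratio of 1.06 (1.05 to 1.07) within 10000 bases of a TSS, 1.04 (1.03 to 1.04) up to 50000 bases, 1.00 (1.00 to 1.01) up to 200000 bases and 0.997 (0.989 to 1.00) beyond. Outside genes the ratio was 0.995 (0.990 to 1.00), 0.986 (0.983 to 0.990), 0.982 (0.979 to 0.984) and 0.999 (0.997 to 1.00) over the same steps. At every distance step up to 200000 bases, windows inside genes had the higher ratio, and beyond that the intervals of both overlapped.

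**Figure D2:**
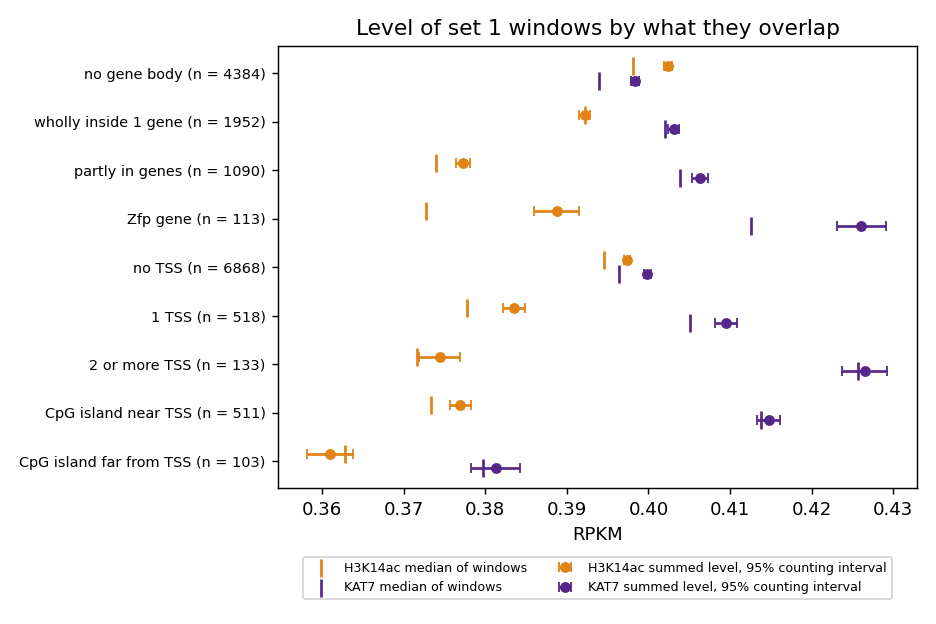
Summed level in RPKM (dots, with 95% counting intervals) and median window (ticks) for H3K14ac and KAT7, by what the window overlaps. The columns are farthest apart in windows with 2 or more TSS, at 0.374 and 0.427, and nearly equal outside genes, at 0.402 and 0.398.

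CpG islands near a TSS lay in 511 windows. These windows had 0.377 (0.376 to 0.378) in H3K14ac and 0.415 (0.413 to 0.416) in KAT7, and 47.0% had a ratio interval above 1. The factor against windows without such an island was 0.948 (0.945 to 0.952) in H3K14ac and 1.04 (1.033 to 1.040) in KAT7. CpG islands far from a TSS, in 103 windows, went with a lower level in both columns. H3K14ac was 0.361 (0.358 to 0.364) and KAT7 0.381 (0.378 to 0.384), and 85.4% of these windows were under the H3K14ac median of the rest. The 5692 windows without any CpG, Enh or IS element of the table had 0.400 and 0.402, and those of them outside genes, 3749 windows, had a ratio of 0.990 (0.989 to 0.992).

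CpG islands near a TSS that lay inside windows did not have less H3K14ac than such islands elsewhere in the table. Islands were set against islands, so this does not show where in a window the lower H3K14ac lay. Compared within bands of length, of CpG islands near a TSS with a length of 501 to 1000 bases, 215 lay inside windows and had an H3K14ac level of 0.515 (0.506 to 0.525), against 0.478 in 4775 islands elsewhere, a factor of 1.08 (1.06 to 1.10). KAT7 in the same islands was 0.490 (0.481 to 0.50) against 0.494, a factor of 0.993 (0.973 to 1.01). This band had the largest H3K14ac factor. Islands near a TSS of 251 to 500 and of 1001 to 2000 bases had H3K14ac factors of 1.04 (1.01 to 1.07) and 1.04 (1.01 to 1.06). With at most 250 bases, 43 islands inside windows had factors of 1.00 (0.928 to 1.08) in H3K14ac and 0.895 (0.827 to 0.968) in KAT7. The table's Enh elements near a TSS of 2001 to 5000 bases, 75 inside windows, had factors of 1.07 (1.05 to 1.09) in H3K14ac and 1.03 (1.01 to 1.05) in KAT7. The shortest ones, of at most 250 bases, went the other way in H3K14ac, with factors of 0.941 (0.895 to 0.988) and 1.02 (0.983 to 1.07) over 179 elements inside windows. Islands far from a TSS were lower inside windows in the band of 501 to 1000 bases, where 29 islands inside windows had factors of 0.916 (0.862 to 0.973) and 0.897 (0.844 to 0.952). IS elements far from a TSS of 251 to 500 bases, 107 inside windows, had factors of 1.05 (1.00 to 1.09) and 1.12 (1.08 to 1.17). What Enh and IS abbreviate is not stated in the labels or the file.

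The base composition of the promoters followed the ratio. Windows held 1114 RefSeq promoters with a median of 13 CpG each, and 56.3% held at least 10, against 44.0% of all autosomal promoters. The 392 promoters in windows with a ratio interval above 1 had a median of 20.5 CpG, the 674 in windows whose interval included 1 had 7, and the 48 in windows below 1 had 3. By the most CpG-rich promoter in a window, the ratio was 1.00 (0.995 to 1.01) with at most 4 CpG, 1.01 (1.001 to 1.020) with 5 to 9, 1.09 (1.08 to 1.10) with 10 to 19 and 1.10 (1.097 to 1.111) with 20 or more. Between the first and the last of these groups, H3K14ac was 0.399 (0.397 to 0.401) and 0.378 (0.376 to 0.379), and KAT7 was 0.400 (0.398 to 0.402) and 0.417 (0.415 to 0.419). The GC content of the promoters moved with the ratio too, with medians of 60.7% above 1 and 49.8% below 1, and its part in these values was not tested.

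**Figure D3:**
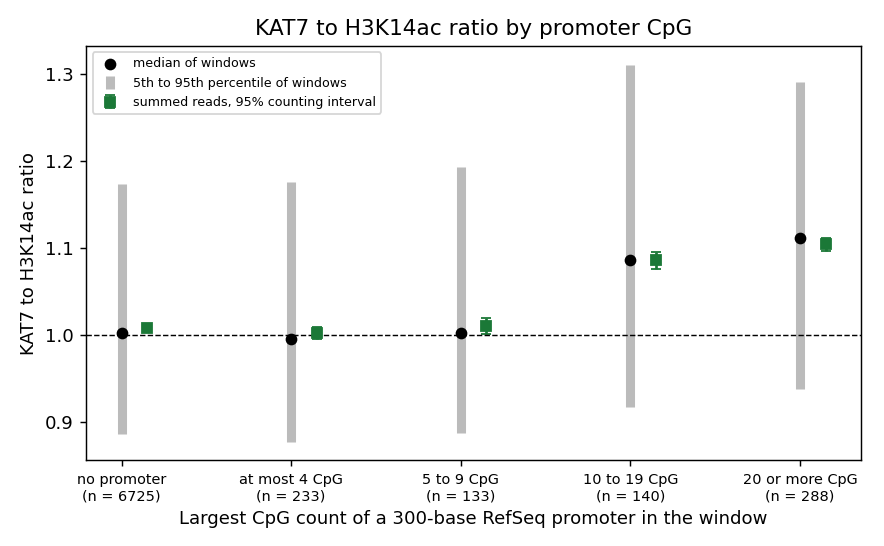
KAT7 to H3K14ac ratio of windows grouped by the CpG count of their most CpG-rich promoter, with the median (black dot), the 5th to 95th percentile (grey bar) and the ratio of summed reads with its 95% counting interval (green square). The medians go from 0.995 at no more than 4 CpG to 1.11 at 20 or more, and the grey bars overlap.

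The expression class that the table gives each gene, Top and Bottom for 5% of genes each and Other for the remainder, went with the KAT7 level. Only windows wholly inside 1 gene and without a TSS were used for this comparison. In 52 windows of Top genes, KAT7 was 0.425 (0.420 to 0.429) and H3K14ac 0.385 (0.381 to 0.389). In 100 windows of Bottom genes both were 0.395 (0.392 to 0.398). The 1800 windows of Other genes lay between in KAT7, at 0.403 (0.402 to 0.404), and had 0.392 (0.392 to 0.393) for H3K14ac. The factor of Top over Bottom windows was 1.08 (1.06 to 1.09) for KAT7 and 0.975 (0.962 to 0.988) for H3K14ac, and 90.4% of Top windows were above the KAT7 median of Bottom windows. In H3K14ac the medians of Top and Bottom windows were 0.388 and 0.392, with 55.8% of Top windows under the Bottom median, so the classes were not set apart there.

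Among Top genes, the window in Klhdc2, a substrate receptor gene of a ubiquitin ligase (chr12:69297366-69309366), had 0.342 (0.314 to 0.371) in H3K14ac and 0.465 (0.433 to 0.50) in KAT7. Its ratio was 1.36 (1.22 to 1.52). Cyb5b, a gene of outer mitochondrial membrane cytochrome b5 (chr8:107172373-107184373), had 0.381 and 0.469, a ratio of 1.23 (1.11 to 1.37). Ttc3, a ubiquitin ligase gene (chr16:94414465-94426465), had 0.392 and 0.470, a ratio of 1.2 (1.08 to 1.34). A window in Fyn, which encodes a Src-family kinase (chr10:39497379-39509379), was high in both columns, at 0.449 (0.418 to 0.482) and 0.477 (0.444 to 0.512), and its ratio of 1.06 (0.960 to 1.18) could not be told from 1. These are 4 of the 5 windows with the highest KAT7 among the 52 and were picked for it. The remaining one, in Zeb1, had 0.458 in H3K14ac and 0.473 in KAT7, and its ratio of 1.03 (0.933 to 1.14) could not be told from 1 either.

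**Figure D4:**
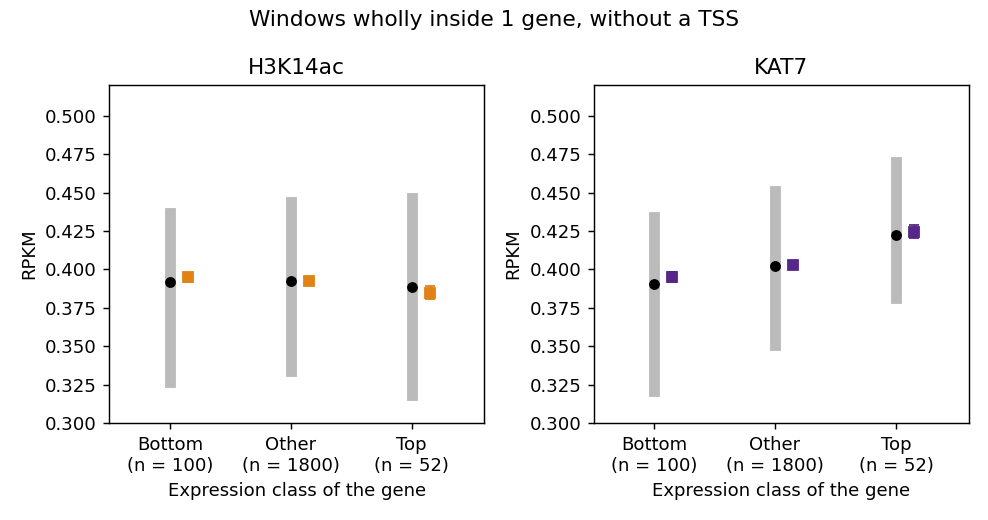
Level in RPKM of windows wholly inside 1 gene and without a TSS, by the gene's expression class, for H3K14ac (left) and KAT7 (right), with the median (black dot), the 5th to 95th percentile (grey bar) and the summed level with its 95% counting interval (coloured square). The KAT7 level is 0.395 in Bottom and 0.425 in Top genes, while the H3K14ac medians differ little, and the axes start at 0.3.

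Windows differed little from the remainder of the gene around them. This was measured in 1007 genes with 1216 windows wholly inside them. The summed level in the windows was 0.996 (0.994 to 0.998) times that of the remainder in H3K14ac and 1.02 (1.018 to 1.023) times in KAT7. With each window set against its own gene's remainder, both factors were 1.01. The median gene had 1.01 in each column, and the middle 50% of genes lay between 0.964 and 1.06 for H3K14ac and between 0.968 and 1.05 for KAT7. The window was above its gene in 55.9% of genes for H3K14ac and in 57.2% for KAT7. In 56 Bottom genes KAT7 was above the remainder in 71.4%, with a factor of 1.05 (1.04 to 1.06), and in 28 Top genes it was so in 14, with a factor of 0.999 (0.984 to 1.01). The difference between these classes was not tested.

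Zinc-finger genes, here those whose symbols start with Zfp, held windows more often than other genes of like length, between 5001 and 50000 bases. Of 387 autosomal Zfp genes 110 held a window (28.4%), against 15.1% of all 19903 autosomal genes. Among genes of 10001 to 20000 bases the shares were 25.3% of Zfp genes (exact binomial 95% interval 18.7 to 32.8) and 10.8% of others (9.82 to 11.9). Among genes of 20001 to 50000 bases they were 36.4% (27.4 to 46.3) and 14.3% (13.3 to 15.4). In genes of 2001 to 5000 bases, 7.69% of Zfp genes (0.945 to 25.1) and 7.18% of others held a window, which could not be told apart. Chromosomes 7, 17, 13 and 11 held most of the 113 Zfp windows, with 19, 15, 14 and 11.

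Zfp windows had more KAT7 than windows in other genes. The size of this excess and the level of H3K14ac in Zfp windows both depended on chromosome 4. The 113 windows had 0.389 (0.386 to 0.392) in H3K14ac and 0.426 (0.423 to 0.429) in KAT7, with medians of 0.373 and 0.413. The 3022 windows in other genes had 0.387 and 0.404, with medians of 0.387 and 0.403. These other genes include zinc-finger genes of other symbols, such as Rbak. The factor was 1.00 (0.997 to 1.012) in H3K14ac and 1.05 (1.047 to 1.062) in KAT7. Without chromosome 4 it was 0.957 (0.949 to 0.964) and 1.01 (1.007 to 1.022). Medians gave 0.962 and 1.02 with all chromosomes, and 73.5% of Zfp windows were below the H3K14ac median of other genic windows while 67.3% were above their KAT7 median. The ratio interval lay above 1 in 45.1% of Zfp windows and in 24.8% of windows in other genes. With a TSS in the window, Zfp windows (24) and windows of other genes (627) had close medians, 0.378 and 0.377 for H3K14ac and 0.412 and 0.408 for KAT7. The summed factors of these windows were 0.976 (0.961 to 0.992) in H3K14ac and 0.994 (0.978 to 1.01) in KAT7. Without a TSS the summed factors, chromosome 4 included, were 1.01 and 1.07, and medians gave 0.952 and 1.03.

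On chromosome 4 a group of 3 windows carried the excess. Zfp980 (chr4:145676405-145688405) had 1.48 (1.42 to 1.54) in H3K14ac and 1.47 (1.41 to 1.53) in KAT7. Zfp985 (chr4:147578137-147590137) had 0.994 (0.947 to 1.04) and 0.909 (0.863 to 0.957), and Zfp993 (chr4:146630909-146642909) had 0.793 (0.751 to 0.837) and 0.755 (0.713 to 0.799). The other 4 Zfp windows of the chromosome, in Zfp462, Zfp37 and Zfp691, had between 0.333 and 0.386 for H3K14ac. Zfp980, Zfp985 and Zfp993 belong to a multigene family, so their counts are uncertain, and whether reads were placed uniquely there was not tested.

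The 5 Zfp genes with the most bases in windows were Zfp462, Zfp532, Zfp33b, Zfp934 and Zfp758, with 2 windows each. In Zfp33b one window (chr5:104577318-104589318) had 0.339 (0.312 to 0.367) in H3K14ac and 0.461 (0.428 to 0.495) in KAT7, a ratio of 1.36 (1.22 to 1.52), while the other, at the end of the gene, had a ratio of 1.07 (0.957 to 1.19). In Zfp934 the window at the TSS (chr13:62550910-62562910) had 0.370 and 0.462, a ratio of 1.25 (1.12 to 1.39), and the other window 0.413 and 0.408, a ratio of 0.988 (0.887 to 1.10). Zfp462 had ratios of 1.18 (1.05 to 1.32) and 0.989 (0.885 to 1.11) in windows that lie side by side. Zfp532 had 1.19 (1.06 to 1.33) and 1.06 (0.945 to 1.18), and Zfp758 had 1.05 in both. In 4 of these 5 genes only 1 of the pair of windows had an interval above 1. The difference between windows of a gene was not tested. Zfp93, whose promoter is printed above, had 0.327 in H3K14ac and 0.396 in KAT7 in its window (ratio 1.21), and Zfp26 (chr9:20417886-20429886) had the lowest ratio of all Zfp windows, 0.878 (0.787 to 0.980).

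Genes of the H3K9me3 machinery, 25 in the list, held 6 windows in 5 genes. In all 6 the KAT7 value was above the H3K14ac value, and in 4 the ratio interval lay above 1. The window of Cbx5 (chr15:103236867-103248867), which contains its promoter, had 0.368 (0.340 to 0.398) in H3K14ac and 0.461 (0.428 to 0.495) in KAT7, a ratio of 1.25 (1.12 to 1.40). Hells, a chromatin remodeller gene needed for DNA methylation at repeats, had 0.369 and 0.432, a ratio of 1.17 (1.05 to 1.31). Tasor, a gene of the HUSH silencing complex (chr14:27422409-27434409), had 0.399 and 0.460, a ratio of 1.15 (1.04 to 1.28). Atf7ip, a partner of SETDB1, had ratios of 1.08 (0.968 to 1.21) and 1.15 (1.02 to 1.29), and its relative Atf7ip2 had 1.04 (0.934 to 1.16). The enzyme genes Setdb1, Suv39h2, Ehmt1 and Ehmt2, and Trim28, held none of the windows. In all genic windows the share with an interval above 1 was 25.6%, as given above, and in gene bodies of 10001 to 20000 bases it was 38.7%.

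Imprinted genes, of which 12 of 29 held a window against 15.1% of all autosomal genes, were mixed in ratio. The 15.1% is not matched for length. Imprinted genes with a window had a median of 52067 bases, and 26.2% of non-Zfp genes of 50001 to 200000 bases held one. Some imprinted genes share a window, such as Kcnq1 and Kcnq1ot1, so they are not separate cases. The ratio was below 1 in 7 of the 12 windows of imprinted genes. Its interval lay wholly below 1 in 1 window (8.33%) and above 1 in 2 (16.7%), against 4.31% and 25.6% of all genic windows, and counts this small set nothing apart. Over their 12 windows H3K14ac was 0.392 (0.383 to 0.400), KAT7 was 0.393 (0.384 to 0.402) and the median ratio was 0.963. Both windows of the Kcnq1 locus had more H3K14ac than KAT7, at 0.402 and 0.382 in one and at 0.409 and 0.379 in the one with the Kcnq1ot1 promoter (chr7:143289736-143301736), whose ratio was 0.926 (0.829 to 1.03). The Igf2r promoter window (chr17:12764918-12776918) had 0.396 (0.366 to 0.427) and 0.378 (0.348 to 0.409) in spite of the 34 CpG printed above. The antisense transcript Airn had 0.460 (0.429 to 0.494) and 0.423 (0.392 to 0.456) in a window of its own (chr17:12816732-12828732), and Grb10, a growth factor receptor adaptor gene, had the lowest ratio, 0.885 (0.791 to 0.991). The highest ratios were those of Nnat, which encodes neuronatin, with 0.353 and 0.405 (ratio 1.15, 1.02 to 1.28), and Rtl1, a retrotransposon-derived gene, with 0.286 (0.261 to 0.312) and 0.380 (0.350 to 0.411), a ratio of 1.33 (1.18 to 1.5). Nap1l5 had 1.06, Impact 1.04, Zrsr1 1.02 and the window of Trappc9 and Peg13 0.957, and none of these could be told from 1. The merged values do not separate the parental alleles.

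Receptor and adhesion gene clusters held windows in shares that rose with the median gene length of the cluster. Of 302 olfactory receptor genes, with a median length of 951 bases, 4 held a window (1.32%). Of 84 vomeronasal receptor genes, with a median of 11789 bases, 9 did (10.7%), close to the 10.8% of non-Zfp genes of 10001 to 20000 bases. Of 55 clustered protocadherin genes, which give neurons surface identities and have a median of 80073 bases, 26 held one (47.3%). That is above the 26.2% of non-Zfp genes of 50001 to 200000 bases. The 26 genes lie in 7 windows that their overlapping transcripts share, so they are not separate cases. Their median length was 158942 bases, against 3615 in those without a window. The protocadherin windows had 0.376 (0.365 to 0.387) in H3K14ac and 0.406 (0.394 to 0.418) in KAT7, a ratio of 1.08 (1.03 to 1.12). The vomeronasal windows had 0.382 (0.373 to 0.392) and 0.392 (0.381 to 0.402), and the olfactory windows 0.402 (0.387 to 0.417) and 0.412 (0.397 to 0.428). In those receptor windows the ratio intervals, 0.987 to 1.06 and 0.973 to 1.08, included 1.

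Chromosomes differed more in the number of windows than in their level. Chromosome 8 had 52.5 windows per 10 Mb and chromosome 11 had 50.7, and the others had between 23.9 (chromosome 15) and 34.3. These densities are of kept windows and depend in part on the overlap rule. It kept 44.6% of the class's rows on chromosome 8, 49.3% on chromosome 11 and 33.9% to 45.3% on the others. Median H3K14ac ran from 0.381 on chromosome 7 to 0.401 on chromosome 18, and median KAT7 from 0.391 on chromosome 7 to 0.404 on chromosome 18. Those differences are small beside the 5th to 95th percentile of windows on 1 chromosome, 0.318 to 0.444 for H3K14ac on chromosome 7. The median ratio ran from 0.993 on chromosome 2 to 1.03 on chromosome 7. The share of windows in genes ran from 30.6% on chromosome 3 to 56.7% on chromosome 11, and over 19 chromosomes it had a Spearman correlation of -0.425 and a Pearson correlation of -0.450 with median H3K14ac. With median KAT7 the values were -0.124 and -0.106, and with the median ratio 0.289 and 0.333, all given as a description.

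**Figure D5:**
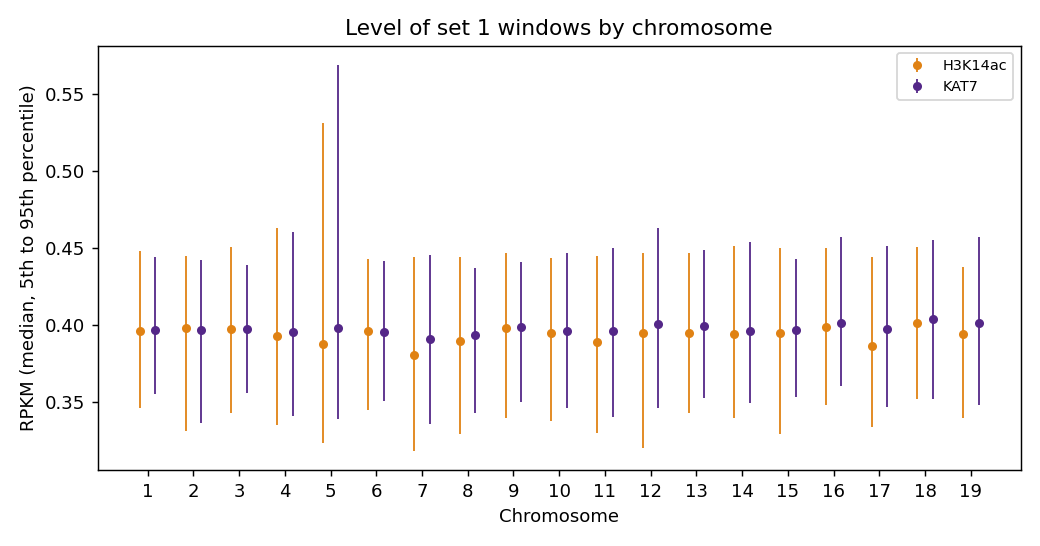
Median (dot) and 5th to 95th percentile (line) of window levels in RPKM for H3K14ac and KAT7 on each autosome. The medians stay between 0.381 and 0.404, and chromosome 5 has the widest upper range, up to 0.531 in H3K14ac and 0.569 in KAT7.

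The highest windows were high in both columns and mostly outside genes. Of the 75 windows in the highest 1% of H3K14ac, 71 (94.7%) were also in the highest 1% of KAT7. No gene body was touched by 77.3% of the 75, against 58.3% of all windows. On chromosome 5 lay 21 of the 75 and on chromosome 4 lay 11. They lay in groups. On chromosome 4, 8 of the windows lay between 145676405 and 147660019, at 0.754 to 1.96 for H3K14ac and 0.755 to 2.00 for KAT7, in a stretch with 21 genes of which 9 are Zfp genes. The highest of all (chr4:146486571-146498571), next to that family but in no gene body, had 1.96 (1.90 to 2.03) and 2.00 (1.93 to 2.07). On chromosome 5, 10 lay between 93932255 and 95679401 with 0.550 to 0.786 for H3K14ac and no gene body, and 6 lay between 14919341 and 15707365, near genes of the Speer4 family. The window over the Ugt1a cluster (chr1:88206263-88218263), with the printed Ugt1a1 promoter, had 1.56 (1.5 to 1.62) and 1.6 (1.54 to 1.66). On chromosome 8 a pair of windows, at chr8:55115508-55127508 and chr8:55356672-55368672, had the only ratio intervals under 1 among the 5 highest in H3K14ac, 0.866 (0.820 to 0.913) and 0.871 (0.821 to 0.923). No input or IgG value was used here, and how many copies of these sequences the cells carry was not measured.

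The lowest windows were less alike in the columns. Of the 75 in the lowest 1% of H3K14ac, 35 (46.7%) were in the lowest 1% of KAT7. A gene body was touched by 49, and 34.7% touched none, against 58.3% of all windows. Their median ratio was 1.19, which choosing them by low H3K14ac favours. On chromosome 2, 10 lay between 175283732 and 177018198, a stretch with 16 genes that include Zfp966 and Zfp968, at 0.0688 to 0.280 for H3K14ac. The lowest (chr2:175405818-175417818) had 117 H3K14ac reads and 141 KAT7 reads, levels of 0.0688 (0.0569 to 0.0824) and 0.0876 (0.0737 to 0.103). On chromosome 7, 9 lay between 21300005 and 23125697, a stretch with vomeronasal receptor genes, at 0.179 to 0.302. Whether reads could be placed uniquely in these gene families is not known here.

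The 5 windows with the highest lower bound of the ratio were genic, and the 5 with the lowest upper bound were mostly not. These are only 5 windows at each end, and 58.3% of all windows touched no gene body. The highest lower bound belonged to the window of Alg1 and Eef2kmt (chr16:5240687-5252687), the first a mannosyltransferase gene of protein glycosylation, with 0.261 (0.237 to 0.287) in H3K14ac and 0.391 (0.361 to 0.423) in KAT7, a ratio of 1.5 (1.32 to 1.69). Ube2z (chr11:96054922-96066922) had 0.305 (0.279 to 0.332) and 0.452 (0.419 to 0.486), a ratio of 1.48 (1.32 to 1.66). Rbak and Spdye4b, which share a window (chr5:143171340-143183340) and whose promoters overlap on opposite strands, had 0.311 (0.285 to 0.339) and 0.460 (0.427 to 0.494), a ratio of 1.48 (1.32 to 1.66). Nemf, a ribosome quality control gene (chr12:69318118-69330118), had 1.44 (1.29 to 1.6), and the window of Rnf166, Ctu2 and Piezo1 (chr8:122474506-122486506) had 1.45 (1.28 to 1.64). In all 5 the H3K14ac value was under 0.333, the 5th percentile of windows, and in 3 of them KAT7 was above its 95th percentile of 0.449.

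At the other end, the lowest upper bound was in a window of chromosome 7 outside genes (chr7:145216755-145228755), with 0.440 (0.409 to 0.472) in H3K14ac and 0.336 (0.308 to 0.365) in KAT7, a ratio of 0.763 (0.682 to 0.853). The next, with 0.782 (0.700 to 0.872), lay 124118 bases from the TSS of Osr1, a transcription factor gene of the Bottom class (chr12:9438324-9450324). Sergef (chr7:46500555-46512555) held the only genic window of these 5, with 0.533 (0.499 to 0.569) and 0.423 (0.391 to 0.456), a ratio of 0.792 (0.716 to 0.876). The extremes were picked by their intervals from 7519 windows, so their sizes are a description and are overstated by chance.

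Against the second set of H3K9me3 domains, filtered the same way to 2540 windows of the same length, the first set had an H3K14ac level within counting error and slightly more KAT7. The second set had 0.396 (0.3955 to 0.3967) for H3K14ac, 0.396 (0.3953 to 0.3965) for KAT7 and a ratio of 0.999 (0.997 to 1.002). The factor of the first over the second set was 1.00 (0.998 to 1.002) in H3K14ac and 1.01 (1.011 to 1.015) in KAT7, and 56.3% of first-set windows were above the KAT7 median of the second. The first set lay more often in genes (41.7% against 33.8%), in Zfp genes (1.5% against 0.551%) and at a TSS (8.66% against 5.35%). The H3K14ac factors differed in direction by gene overlap. Among windows without a gene body the factor was 1.01 in both columns, and among windows with one it was 0.985 (0.982 to 0.988) in H3K14ac and 1.01 (1.005 to 1.011) in KAT7. Gene bodies of 10001 to 20000 bases, 3036 in all, had 0.365 (0.365 to 0.366) in H3K14ac and 0.390 (0.390 to 0.391) in KAT7, a ratio of 1.07, so the H3K9me3 windows were not lower than whole genes of like length in either column.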

How the data were processed

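ChIP-seq values came from 1 deposited table of regions with 12 classes. Per the file headers, the authors give read counts and RPKM of every region, 1 merged column each for H3K14ac and KAT7 (HBO1). The names of both columns end in SC and gc, which are not explained in the sources used here, so whether the counts are raw or adjusted is not known, and the intervals treat them as raw. Dividing counts by end minus start and by 1 total per column gave back the deposited RPKM in 100% of regions (relative tolerance 1e-06). The submitters' processing notes name mm10 as genome build and, with no versions, featureCounts, deepTools, Picard, SAMtools and Bowtie2. No column of a single library was used.

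A group's level was its summed count over summed length and column total, with an exact Poisson 95% interval. Ratios carry exact binomial 95% intervals. A simulation of them drew independent reads, as the intervals assume, so it cannot show how well they hold for these data. Rows that share bases within their class were left out, since how the authors assigned reads to shared bases is not given in the sources used here. Overlap meant at least 1 shared base. For windows, 0.5 reads were added to each count in single-window median ratios. Gene symbols (96.7% of 20689 genes) and promoters came from RefSeq GRCm38.p6 by gene identifier. No exon annotation was used, so exons and introns are not told apart.

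The windows named were the 5 with the highest lower bound and the 5 with the lowest upper bound in H3K14ac, KAT7 and the ratio, the 5 Zfp genes with most bases in windows, and members of the machinery and imprinted lists that hold a window. The 3 longest windows could not be named, since all have 12001 bases. The windows in Top genes, Zfp26, Zfp93, the Zfp genes of chromosome 4 and the groups of extreme windows (gaps of at most 1000000 bases) were chosen after their values were seen. The set of windows and all lists were chosen with earlier results of these data known. Genotype and IgG tests could not be run on merged columns. Python 3.11.15, numpy 2.4.6, pandas 2.3.3, scipy 1.17.1 and matplotlib 3.10.9 were used.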

Additional observations from a re-analysis of the deposited data

How the results depend on the processing

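Of 54 alternatives over 11 results, 25 stayed within the error of the value reported, 26 moved and 3 changed direction. Among the 25 are alternatives that could change nothing, named below. Levels of H3K14ac and KAT7 were 0.393 and 0.397 as medians of windows, 0.389 and 0.394 with chromosomes X and Y, and 0.356 and 0.359 with rows that share bases, and the cause was not tested. The ratio was 1.006 as a median and 1.009 with rows that share bases. It changed side of 1 between windows without a gene body (0.990) and with one (1.05). The factor of genic over other windows moved to 0.970 for H3K14ac and 1.02 for KAT7 as a ratio of medians, and to 0.974 for H3K14ac in windows without CpG, Enh or IS elements. The factor of Zfp over other genes was, for H3K14ac and KAT7, 1.01 and 1.07 with at least 50% of the window covered, 1.02 and 1.07 with the wider list of symbols, 0.962 and 1.02 as medians, 0.957 and 1.01 without chromosome 4, and 1.01 and 1.07 without TSS windows. Each of these Zfp factors except the one without chromosome 4 includes its windows. Windows over the rest of their gene turned from 0.996 to 1.01 in H3K14ac, both as a median of genes and against each gene's own remainder. KAT7 moved to 1.01 and 1.01, and H3K14ac to 0.998 with at least 10000 bases outside the windows. The H3K14ac factor of the first over the second set was 1.01 without gene bodies. Alternatives on window length and on a cap of 5 RPKM changed nothing by construction, since all windows have 1 length and no window passed 5 RPKM. Keeping only gene bodies of at least 10000 bases also changed nothing, since a gene that holds a whole window is longer. These alternatives are counted among the 25 and are no check of the results. The alternatives that leave out chromosome 4, TSS windows, elements or gene bodies, that split the ratio by gene bodies, or that use each gene's remainder were added after the data were seen. No paired analysis was possible because the merged columns carry no replicate numbers. For the same reason no replicate could be left out. A single window, with about 669 H3K14ac and 639 KAT7 reads, shows differences in ratio only from roughly the size of its own interval, and IgG background was not subtracted.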

Other observations

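Pseudogene rows of the table shared bases with 4200 of the 7519 windows (55.9%). These windows had 0.393 (0.392 to 0.393) in H3K14ac and 0.404 (0.404 to 0.405) in KAT7, and 19.9% had a ratio interval above 1. The 3319 windows without such a row had 0.400 (0.400 to 0.401) and 0.397 (0.396 to 0.398), and 5.27% had an interval above 1. Of the highest 1% of windows in H3K14ac, 69.3% shared bases with a pseudogene row, and of the lowest 1%, 82.7% did.

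The 6987 rows of the first set that share bases with the second set alone had higher summed levels, 0.413 (0.412 to 0.413) in H3K14ac and 0.414 (0.414 to 0.414) in KAT7, but medians of 0.392 and 0.391, under those of the kept windows. The highest of these rows had 22.1 RPKM for H3K14ac, against 1.96 among the kept windows.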
